A study of Homo sapiens with 78 samples.

Results

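Among the genes named ZNF followed by a number, which code for zinc finger proteins, 136 had a mean level of 5 TPM (a transcript level scaled for length and for the size of the library) or more over the 78 labelled A549 libraries, and these 136 genes are described here. They were 28.6% of the 476 genes with such a symbol in the table, which held 19652 genes in all, and they were chosen by that mean level, so the level itself is a description and carries no test. A549 is a human lung carcinoma cell line that is used as a model of the airway epithelium, and it is a wild-type line grown as 1 cell type. Confluent cells were kept overnight in medium without serum or additives, were given fresh medium of the same kind and were then harvested for poly(A) RNA sequencing after 1, 2, 6, 12 or 24 h. Cells were treated with the cytokine IL-1β (1 ng/ml), with the synthetic glucocorticoid budesonide (300 nM) or with both together (IL-1β-plus-budesonide), or were not stimulated (NS). Each of the 20 groups held 4 libraries, but for 2 groups of 3, which were the combination at 12 h and NS at 6 h.

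The zinc finger is a small fold in which cysteines and histidines hold a zinc ion, and strings of fingers of the C2H2 type read DNA, RNA or other proteins. Many ZNF proteins also carry a KRAB domain, which recruits TRIM28 and, through it, histone methyltransferases and heterochromatin proteins that silence the bound locus, often a transposable element. Others carry a SCAN domain for pairing with each other, activate promoters, or act on RNA and ribosomes. IL-1β signals mainly through the transcription factor NF-κB, which binds κB motifs, and budesonide acts through the glucocorticoid receptor, which binds DNA elements built from half-sites.

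Since TPM is scaled for transcript length, levels can be set side by side between genes. The median of the member means was 9.48 TPM, against 22.1 TPM for all 9548 genes at a mean of 5 TPM or more. The most abundant members were ZNF706 (107.6 TPM), a small single-finger protein; ZNF207 (96.2 TPM), a microtubule-binding protein of the mitotic spindle; ZNF146 (64.5 TPM), which is made up almost wholly of fingers; ZNF638 (63.8 TPM), a nuclear RNA- and DNA-binding protein; ZNF664 (50.0 TPM) and ZNF511 (36.9 TPM). Below them, 74 members lay between 5 and 10 TPM, 38 between 10 and 20 TPM and 24 at 20 TPM or more. Just inside the limit of 5 TPM stood ZNF775 (5.07 TPM), ZNF587 (5.05 TPM) and ZNF101 (5.02 TPM), and just outside it ZNF473 (4.99 TPM), ZNF202 (4.98 TPM) and ZNF350 (4.96 TPM). Of the other 340 ZNF symbols, 150 had a mean below 1 TPM and 190 between 1 and 5 TPM. All 136 members passed the filter on low values, and 76 of them were at 5 TPM or more in every library. In NS libraries alone, 3 members averaged less than 5 TPM, which were ZNF101 (4.03 TPM), ZNF775 (4.39 TPM) and ZNF283 (4.99 TPM), so treated libraries brought these 3 into the list. Together the members made up 0.186% to 0.257% of the summed TPM of a library.

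**Figure D1:**
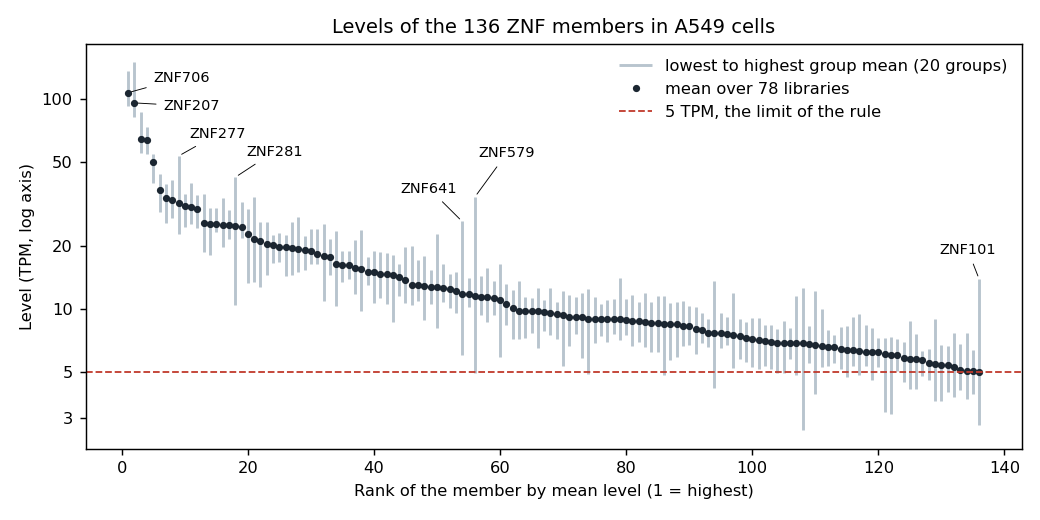
Mean level of each of the 136 members over 78 libraries (points, TPM on a log axis) by rank, with a line spanning the lowest to the highest of the 20 group means and the 5 TPM limit dashed. Most spans are short, while ZNF281, ZNF579, ZNF641, ZNF101 and ZNF236 have long ones, the last without a call in any comparison with NS.

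By annotation the members fell into 59 with a KRAB A-box pattern in the predicted protein and 77 without one. The search can miss divergent KRAB domains. KRAB members held a median of 11 C2H2 fingers, against 6 in the other members, and ZNF236 held the most, 30. No finger of the C2H2 pattern was found in 4 members, among them ZNF185, an actin-associated LIM-domain protein. Chromosome 19, which carries large clusters of such genes, held 44 members (32.4%), 27 of them with the KRAB pattern. The transcripts of 33 members shared more than 20% of their words of 31 bases with other genes (highest 92.3%, ZNF593). Words were matched on either strand and with any other gene, so a shared word need not come from a copy. Reads of such stretches may not be fully told apart, and how they were split was not examined.

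The labels were checked on genes outside the family. At 6 h budesonide raised FKBP5, a classical glucocorticoid target, by 4.38 on the log2 scale, and IL-1β raised the chemokine CXCL8 by 8.85. Epithelial markers summed to 2181 to 15271 TPM in every library, against at most 41.8 TPM for immune, 18.0 TPM for fibroblast and 2.05 TPM for endothelial markers. The mitochondrially encoded share was 11.8% to 17.2%, and the summed TPM of a library 812680 to 1009499. Over all genes, 7 libraries stood apart from the others of their group, namely all 3 of IL-1β-plus-budesonide at 12 h, replicate 2 of IL-1β at 24 h, replicate 2 of budesonide at 12 h, replicate 3 of budesonide at 2 h and replicate 4 of IL-1β-plus-budesonide at 1 h. Each library was set against the mean of the others in its group. In the group of 3 at 12 h, replicate 2 lay farthest (root mean square log2 distance 0.703). Replicates 1 and 4 (0.426 and 0.443) were just over the limit of 0.420, and the mean each was set against held replicate 2. Replicate 2 of IL-1β at 24 h is the one that enters a comparison at 6 or 24 h. The calls against NS named below that are lost without it are given with and without it. Other comparisons were not refitted without it.

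In the tests, a gene passed when its adjusted p (limma on log2(TPM + 0.5) with Benjamini-Hochberg adjustment over 13327 genes) was 0.05 or less, and it was called 2-fold when its log2 change was also at least 1 in size. Over the 15 comparisons with NS, 91 of 136 members (66.9%) passed at least once, where 79.5% of all genes tested did so. Only 8 members (5.88%) were called 2-fold in any of the 15, against 24.4% of all genes and 19.8% of genes at a mean of 5 TPM or more. These were ZNF641, ZNF101, ZNF277, ZNF581, ZNF579, ZNF362, ZNF395 and ZNF618. In 79 members the log2 change stayed under 0.5 in size in all 15 comparisons. The levels of ZNF236 spread most without a call, with group means of 12.5 TPM in IL-1β-plus-budesonide cells at 24 h and 2.63 TPM in NS cells at 1 h, and single libraries between 2.03 and 17.3 TPM.

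**Figure D2:**
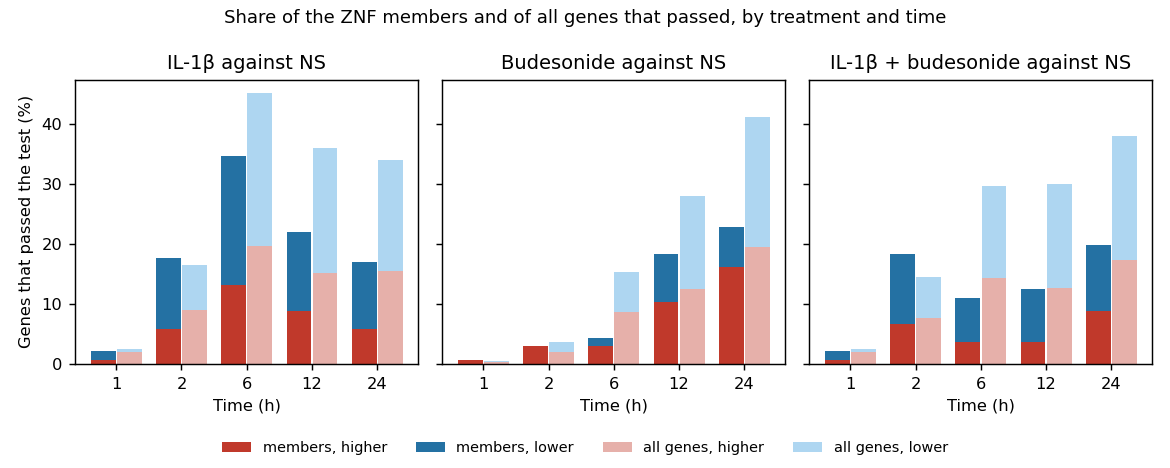
Percentage of the 136 members (dark bars) and of all 13327 genes (pale bars) that passed the test as higher (red) or lower (blue) than NS at 1, 2, 6, 12 and 24 h, with a panel per treatment. Member bars are close to those of all genes at 1 and 2 h and shorter at 6, 12 and 24 h, for example 4.41% against 15.3% with budesonide at 6 h.

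IL-1β had moved few members by 1 h. At that time 1 rose and 2 fell (background 2.49% of all genes tested). At 2 h, 8 rose and 16 fell, 17.6% of the members against 16.6% of all genes. The 2 called 2-fold and higher at 2 h were ZNF101 and ZNF641, both with a KRAB pattern. At 2 h, 3.32% of all genes were called 2-fold in either direction.

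ZNF641 had 26.7, 24.5, 29.9 and 23.4 TPM in IL-1β cells at 2 h, against 6.17, 8.66, 6.18 and 10.1 TPM in NS cells. The groups did not overlap, and ZNF641 was 1.71 ± 0.27 higher on the log2 scale (SE, adjusted p = 5.64e-07). It stayed high, with 14.6, 19.2, 21.8 and 16.5 TPM in IL-1β cells at 6 h against 7.12, 9.42 and 10.4 TPM in NS cells, a log2 change of 0.97 ± 0.29 (adjusted p = 0.00414). At 12 h, when 12 members were higher and 18 lower (22.1%, against 36.0% of all genes), ZNF641 was the one called 2-fold (1.45 ± 0.27, background 6.72%). At 24 h IL-1β cells had 30.7, 11.6, 31.6 and 29.1 TPM, against 8.85, 12.5, 7.45 and 8.57 TPM in NS cells. Replicate 2 of IL-1β at 24 h, a library that stood apart over all genes, lay within the NS range, and the other 3 lay far above it. The 24 h log2 change was 1.34 ± 0.27 with that library and 1.68 without it, and was called 2-fold both ways, the one such call at 24 h (background 8.07%).

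ZNF101, the member with the lowest mean, had 15.5, 15.2, 11.6 and 13.0 TPM in IL-1β cells at 2 h, against 4.92, 4.74, 2.72 and 3.35 TPM in NS cells. Its mean was 4.03 TPM in NS libraries and highest in IL-1β cells at 2 h (13.8 TPM). This rise thus helped it over the 5 TPM limit, and the rule that chose the members favoured its 2-fold call. All 4 IL-1β libraries lay above all NS libraries, and the log2 change was 1.72 ± 0.18 (adjusted p = 6.17e-12). By 6 h the log2 change was 0.40 ± 0.20 (adjusted p = 0.0934), and by 24 h -0.04 ± 0.18. At 1 h it had passed at 0.69 ± 0.18 (adjusted p = 0.0161), a call lost without NS replicate 1, 2 or 3 or without IL-1β replicate 1 (0.0540 to 0.146). ZNF101 thus had a short rise, where ZNF641 stayed high at each later time.

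The promoter windows of these 2 genes are shown because they were the 2 members that IL-1β raised 2-fold at 2 h. Each runs from 250 bases before to 50 bases after a RefSeq start (GRCh38.p14, gene strand, 5′ to 3′), and capitals mark matches to the κB motif, searched on both strands. ZNF641 lies on the minus strand of chromosome 12 and its window is chr12:48350870-48351169, with the match starting 33 bases before the start site. ZNF101 lies on the plus strand of chromosome 19 and its window is chr19:19668589-19668888, with the match starting at base 26 after the start site.
ZNF641: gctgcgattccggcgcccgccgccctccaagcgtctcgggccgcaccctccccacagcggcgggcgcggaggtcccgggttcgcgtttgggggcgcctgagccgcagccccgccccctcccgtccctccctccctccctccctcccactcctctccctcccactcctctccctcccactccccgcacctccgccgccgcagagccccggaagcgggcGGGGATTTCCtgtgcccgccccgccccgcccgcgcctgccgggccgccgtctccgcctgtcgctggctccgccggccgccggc
ZNF101: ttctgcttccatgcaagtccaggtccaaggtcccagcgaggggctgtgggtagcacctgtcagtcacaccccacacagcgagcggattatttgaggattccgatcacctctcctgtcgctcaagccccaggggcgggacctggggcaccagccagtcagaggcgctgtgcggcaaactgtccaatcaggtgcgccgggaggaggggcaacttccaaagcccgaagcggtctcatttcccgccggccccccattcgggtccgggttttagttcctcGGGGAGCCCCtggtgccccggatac
A κB match was found in 7.65% of the 170 windows of members and in 5.91% of all 35116 windows. The second RefSeq window of ZNF641 held none. The 11 members with a match also included ZNF664, ZNF644, ZNF672 and ZNF32, whose log2 changes with IL-1β at 2 h were -0.04, 0.20, -0.19 and -0.12 and did not pass, so a match went with both large and small changes. A match is a description of letters and not a binding site.

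At 6 h IL-1β changed the most members, with 18 higher and 29 lower (34.6% of the members, against 45.1% of all genes, of which 19.6% higher and 25.5% lower). Among those higher at 6 h were ZNF710 (log2 change 0.87), ZNF143 (0.80), ZNF319 (0.75), ZNF267 (0.73), ZNF655 (0.53) and the abundant ZNF207 (0.56), ZNF706 (0.39) and ZNF146 (0.36). ZNF143, which binds and activates many promoters, had 22.9, 21.3, 25.5 and 25.1 TPM in IL-1β cells, against 14.5, 15.3 and 10.8 TPM in NS cells (0.80 ± 0.22, adjusted p = 0.00182). ZNF207 had 141, 155, 155 and 149 TPM in IL-1β cells, against 108, 95.9 and 102 TPM in NS cells (0.56 ± 0.10, adjusted p = 1.94e-06). For both genes every IL-1β library lay above every NS library. The call of ZNF146 was lost without any one of 4 libraries (IL-1β replicates 1 and 4, NS replicates 1 and 4, adjusted p 0.0527 to 0.0866) and after quantile normalization (0.168).

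Of the 12 members on the list of RNA and ribosome proteins, 5 rose with IL-1β at 6 h, 7 did not pass and none fell, so 41.7% passed, near the 45.1% of all genes (19.6% higher). The list was chosen with earlier results of these data known, and no test of it was made. They were ZNF207 and ZNF706, already named; ZNF598, the ubiquitin ligase that marks collided ribosomes (0.37); ZNF622, a factor in the maturation of the large ribosomal subunit (0.31); and ZNF277, a partner of a ribosomal protein (0.37). The median log2 change of these 12 was 0.24, against -0.06 for all members and -0.07 for all genes. ZNF598 had been lower at 2 h (-0.33 ± 0.08) and was one of 3 members, with ZNF263 and ZNF574, that passed in both directions at different times of IL-1β.

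The 2 members that fell 2-fold with IL-1β at 6 h were ZNF362 and ZNF618 (10.0% of all genes were called 2-fold in either direction). ZNF618, a chromatin protein that binds the 5-hydroxymethylcytosine reader UHRF2, had 3.19, 3.30, 3.35 and 2.96 TPM in IL-1β cells, against 7.01, 7.28 and 7.21 TPM in NS cells. The libraries of each group were tightly grouped and far apart, with a log2 change of -1.05 ± 0.19 (adjusted p = 7.77e-06), and the gene was still lower at 24 h (-0.76 ± 0.18). ZNF362 spread more, with 8.63, 2.28, 9.10 and 3.41 TPM in IL-1β cells against 12.7, 13.0 and 18.1 TPM in NS cells (-1.42 ± 0.36, adjusted p = 7.50e-04). Its groups did not overlap at 6 h, while at 24 h they did (-0.22 ± 0.33). The count of 2-fold calls at 6 h was 5 without IL-1β replicate 1 and 4 without IL-1β replicate 4 or without NS replicate 2.

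ZNF395, a hypoxia-inducible factor also known as papillomavirus binding factor, was lower at 2, 6 and 24 h, while the comparison at 12 h did not pass. IL-1β cells had 5.16, 4.63, 7.78 and 3.82 TPM at 2 h, against 11.2, 13.1, 12.4 and 10.1 TPM in NS cells (-1.10 ± 0.18, adjusted p = 1.74e-06). The groups did not overlap at 2, 6 or 24 h, and the log2 changes at 6 and 24 h were -0.82 ± 0.19 and -0.80 ± 0.18. ZNF185 had 4.50, 3.65, 3.01 and 5.69 TPM in IL-1β cells at 6 h, against 7.33, 7.71 and 10.7 TPM in NS cells (-0.96 ± 0.23, adjusted p = 5.48e-04), again without overlap. Further members lower at 6 h were ZNF580 (-0.70), ZNF544 (-0.67) and ZNF219 (-0.65).

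**Figure D3:**
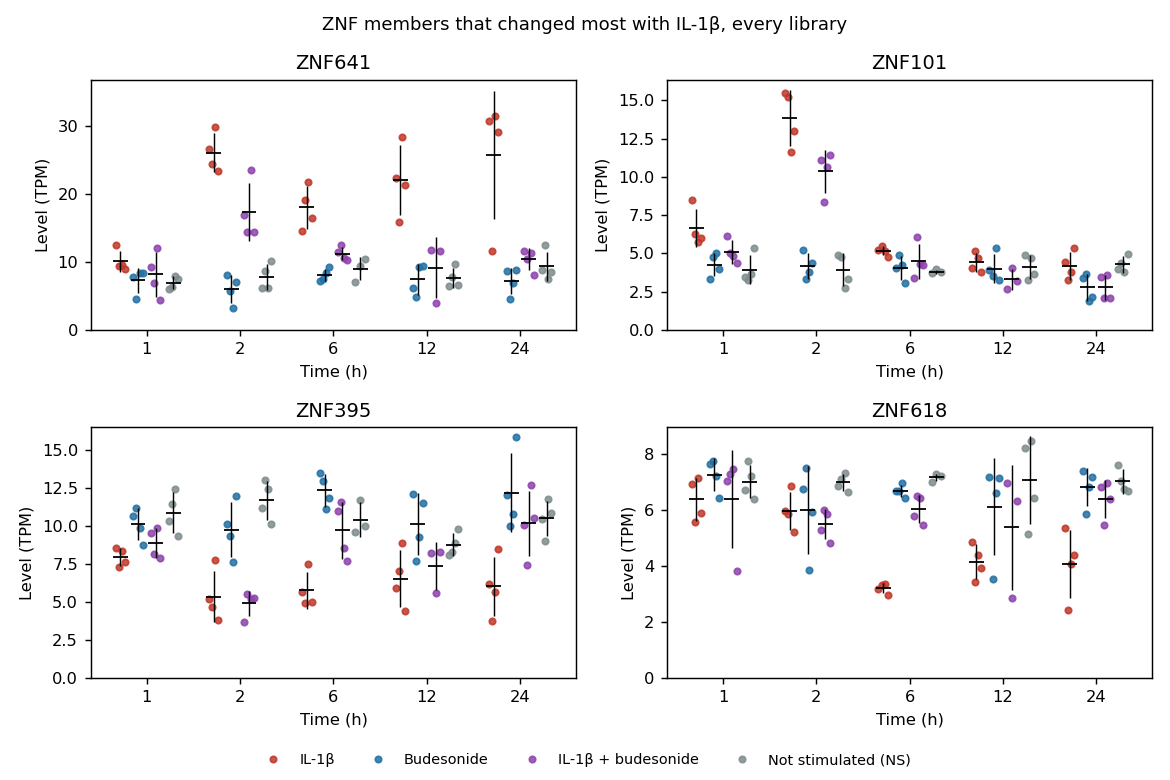
Levels (TPM) of ZNF641, ZNF101, ZNF395 and ZNF618 in every library by time, with the group mean and SD (n = 4 libraries, or 3 for the combination at 12 h and for NS at 6 h). At 2 h the IL-1β libraries of ZNF641 (23.4 to 29.9 TPM) and ZNF101 (11.6 to 15.5 TPM) lie above all NS libraries, and at 6 h those of ZNF618 (2.96 to 3.35 TPM) lie below them.

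At 24 h of IL-1β 8 members were higher and 15 lower (16.9%, against 34.0% of all genes, of which 15.5% higher and 18.5% lower), which is 34.8% higher among those that passed. This split followed the scaling. It was 14 higher and 12 lower (53.8% higher) after median-of-ratios rescaling, and 15 higher and 11 lower (57.7% higher) after quantile normalization. With the replicate number as a block, 14 were higher and 18 lower. Without replicate 2 of IL-1β at 24 h, 9 were lower. Passing in the same direction at 6 and 24 h were 5 members that rose (ZNF641, ZNF267, ZNF277, ZNF319 and ZNF622) and 5 that fell (ZNF395, ZNF618, ZNF446, ZNF512 and ZNF544). Of these 24 h calls, 3 were lost without single libraries other than that one. ZNF544 (-0.43, adjusted p = 0.0454) was lost without NS replicate 1, 3 or 4 or IL-1β replicate 3 (adjusted p 0.0773 to 0.175) and after either rescaling (0.0949 and 0.136). ZNF446 (-0.28, adjusted p = 0.0328) was lost without NS replicate 1 or 4 or IL-1β replicate 1 or 4 (adjusted p 0.0691 to 0.172) and after either rescaling (0.114 and 0.326). ZNF319 (0.51, adjusted p = 0.0181) was lost without NS replicate 4 or IL-1β replicate 1 (adjusted p = 0.106 and 0.0687). ZNF267, a KRAB-type protein on the list of stress-inducible members, had 8.76, 6.83, 7.21 and 10.8 TPM in IL-1β cells at 24 h, against 5.60, 5.65, 5.07 and 6.29 TPM in NS cells (0.51 ± 0.13, adjusted p = 0.00141), after 0.95 ± 0.13 at 2 h. Its groups did not overlap. The 24 h calls of ZNF281 (-0.60 with all libraries, -0.34 without), ZNF622 (0.26 with all libraries, 0.15 without) and ZNF544 (-0.43 with all libraries, -0.42 without) were lost when replicate 2 of IL-1β was left out (adjusted p = 0.116 for ZNF281, 0.201 for ZNF622 and 0.0844 for ZNF544).

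Budesonide changed fewer members early. At 1 h ZNF281 alone passed (background 0.555% of all genes), and at 2 h 4 did, all higher (background 3.61%), which were ZNF579, ZNF281, ZNF710 and ZNF189. At 6 h 4 members were higher and 2 lower (4.41%, against 15.3% of all genes, of which 8.63% higher and 6.65% lower). The 4 were ZNF579, ZNF281, ZNF644 and ZNF277, all of them again higher at 24 h. With the replicate number as a block 9 were higher at 6 h, and without the libraries that stood apart, none of which is in this comparison, 11 were higher, since those libraries enter the shared estimate of spread. The 2 lower members were ZNF326, whose call was lost without NS replicate 1 (adjusted p = 0.0767), and ZNF584, whose call was lost without NS replicate 2 (adjusted p = 0.0683) or budesonide replicate 4 (adjusted p = 0.0541).

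ZNF579, whose function is little known, showed the largest change with budesonide among the members. It had 35.2, 34.3, 32.4 and 34.7 TPM in budesonide cells at 6 h, against 10.4, 11.8 and 10.1 TPM in NS cells. Every budesonide library lay far above every NS library, with a log2 change of 1.63 ± 0.14 (3.09-fold, adjusted p = 5.99e-15), the one 2-fold call at 6 h (background 3.86%). Its log2 change had been 0.91 ± 0.13 by 2 h and was later 1.21 ± 0.13 (12 h, called 2-fold, background 5.61%) and 1.00 ± 0.13 (24 h), and the budesonide and NS libraries did not overlap at any of these times. The 24 h change was lower than the 6 h change by a test of the difference (-0.63 ± 0.19, adjusted p = 0.0191). At 24 h it lay at the limit of a 2-fold call and just missed it.

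ZNF281, a factor linked to stem cell identity and epithelial-mesenchymal transition, rose at every time. It had 29.6, 27.0, 31.6 and 27.4 TPM in budesonide cells at 1 h, against 16.5, 16.3, 17.2 and 18.0 TPM in NS cells (0.74 ± 0.17, adjusted p = 0.0128). At 6 h it had 42.9, 38.9, 44.7 and 43.4 TPM, against 21.4, 20.7 and 23.2 TPM in NS cells (0.95 ± 0.19, adjusted p = 6.94e-05). No libraries overlapped at either time. NS cells themselves were higher at 24 h than at 1 h by 0.65 ± 0.17 (adjusted p = 0.0119), and the change with budesonide at 24 h was 0.47 ± 0.17 (adjusted p = 0.0238). That last call was lost without budesonide replicate 1 or 3 or NS replicate 2 or 3 (adjusted p 0.0515 to 0.0595).

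At 12 h of budesonide 14 members were higher and 11 lower (18.4%, against 28.0% of all genes). By 24 h 22 members were higher and 9 lower (22.8%, against 41.1% of all genes, of which 19.5% higher and 21.6% lower), and the 2 called 2-fold were ZNF277 and ZNF581 (9.8% of all genes). ZNF277 had 46.9, 57.0, 53.2 and 57.3 TPM in budesonide cells at 24 h, against 22.0, 21.9, 23.0 and 24.9 TPM in NS cells (1.20 ± 0.09, adjusted p = 9.36e-19). The log2 changes before were 0.47 ± 0.09 at 6 h and 0.87 ± 0.09 at 12 h, and the 24 h change exceeded that at 6 h by 0.73 ± 0.13 (adjusted p = 1.40e-05). ZNF581 had 32.8, 30.8, 32.1 and 41.7 TPM in budesonide cells at 24 h, against 13.7, 15.8, 17.0 and 17.2 TPM in NS cells (1.08 ± 0.11, adjusted p = 2.84e-12). For ZNF277 and ZNF581 no budesonide library fell in the NS range. NS cells had less ZNF581 at 24 h than at 1 h (-0.36 ± 0.11, adjusted p = 0.0449).

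Also higher at 24 h of budesonide were ZNF185 (0.94 ± 0.22), ZNF524, a telomere-binding protein (0.84 ± 0.17), ZNF740 (0.69), ZNF783 (0.67), ZNF644, a partner of the histone methyltransferases G9a and GLP (0.52), and ZNF580 (0.50). The span of ZNF580 lies inside that of ZNF581, so their reads may not be fully told apart. ZNF185 passed in opposite directions with IL-1β at 6 h and budesonide at 24 h. Lower at 24 h were ZNF326, a subunit of the DBIRD complex that couples transcription to splicing (-0.71 ± 0.09), ZNF101 (-0.58), ZNF331 (-0.55), ZNF180 (-0.53), ZNF267 (-0.48) and ZNF544 (-0.46). ZNF326 had 9.57, 9.07, 9.72 and 8.30 TPM in budesonide cells, against 15.7, 15.2, 15.1 and 15.2 TPM in NS cells. All its budesonide libraries lay below all NS libraries. The call of ZNF101 was lost without budesonide replicate 3 (adjusted p = 0.0595), and that of ZNF544 without budesonide replicate 4 or NS replicate 1 or 3 (adjusted p 0.0899 to 0.121).

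The promoter windows of ZNF579, ZNF277, ZNF581 and ZNF281 held neither a κB match nor a glucocorticoid receptor half-site, written AGAACA or, on the other strand, TGTTCT. Such a half-site stood in 7.06% of the windows of members and in 14.8% of all windows. Only these letters in windows of 300 bases were searched.

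**Figure D4:**
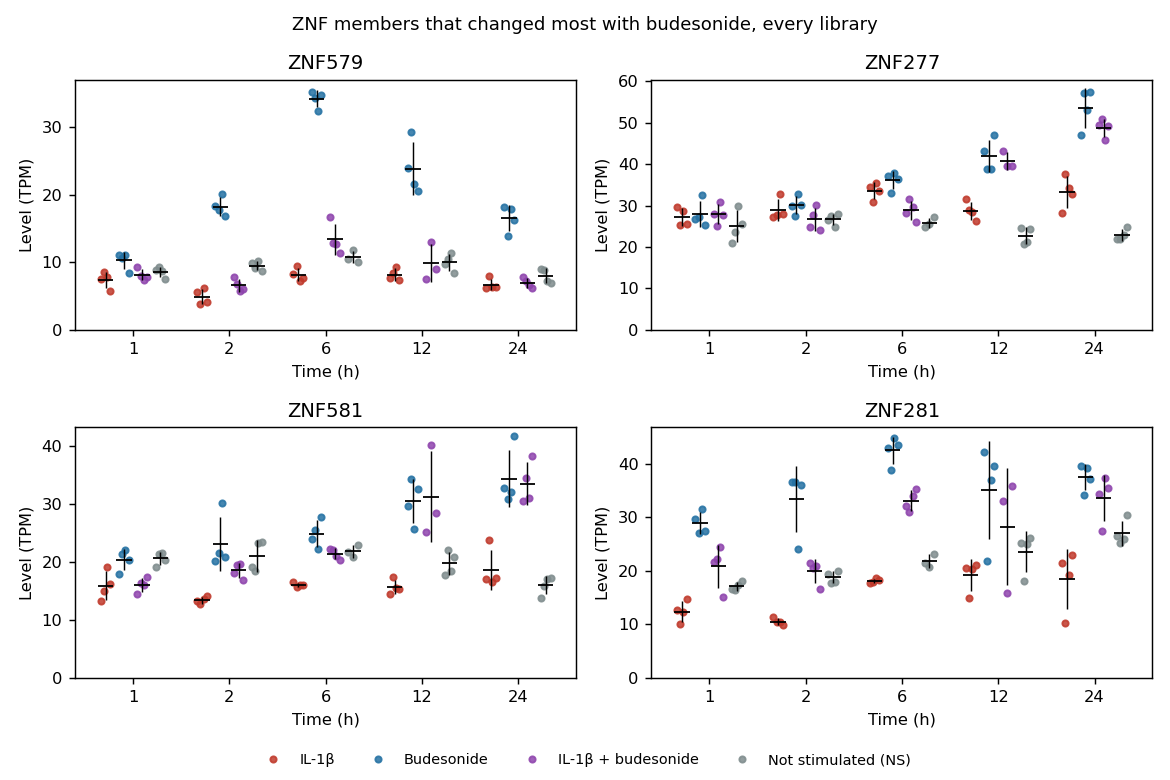
Levels (TPM) of ZNF579, ZNF277, ZNF581 and ZNF281 in every library by time, with the group mean and SD (n = 4 libraries, or 3 for the combination at 12 h and for NS at 6 h). ZNF579 peaks at 6 h of budesonide (32.4 to 35.2 TPM), while ZNF277 and ZNF581 are highest in budesonide cells at 24 h (46.9 to 57.3 TPM and 30.8 to 41.7 TPM).

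With IL-1β-plus-budesonide, 1 member was higher and 2 lower at 1 h (background 2.51%), 9 higher and 16 lower at 2 h (18.4% of members, against 14.5% of all genes), 5 higher and 10 lower at 6 h (11.0%, against 29.6% of all genes, 14.2% higher and 15.4% lower), 5 higher and 12 lower at 12 h (background 30.0%) and 12 higher and 15 lower at 24 h (19.9%, against 38.0%, of which 17.3% higher and 20.7% lower). At 12 h all 3 treated libraries stood apart over all genes, replicate 2 by far the most and the others only just. At 6 h none of those that passed (limma) reached 2-fold (background 7.11%), while 36 members had an unadjusted p under 0.05. The split also followed the scaling at 6 h, where median-of-ratios rescaling gave 8 higher and 8 lower (50.0% higher, against 33.3%), and at 24 h, where it gave 16 higher and 11 lower (59.3%, against 44.4%) and quantile normalization 19 higher and 10 lower (65.5%). At 6 h the lower count was 5 without NS replicate 1, 4 without NS replicate 2 and 6 without IL-1β-plus-budesonide replicate 4.

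The early changes with IL-1β were also seen in the combination at 2 h, but the rises of ZNF101 and ZNF641 were smaller. With IL-1β alone their log2 changes were 1.72 and 1.71. For ZNF101 every IL-1β-plus-budesonide library lay below every IL-1β library. ZNF101 had 11.1, 8.34, 10.6 and 11.4 TPM in IL-1β-plus-budesonide cells at 2 h, against the NS values above (1.32 ± 0.18, adjusted p = 2.44e-08). ZNF641 had 16.9, 14.5, 23.5 and 14.5 TPM (1.11 ± 0.27, adjusted p = 0.00134). ZNF395 had 3.69, 5.50, 5.18 and 5.27 TPM (-1.18 ± 0.18, adjusted p = 2.99e-07). None of these libraries lay in the NS range of its gene, and these 3 were the members called 2-fold at 2 h (background 3.38%). By 24 h the order of the groups had changed for ZNF641, with 11.7, 10.4, 11.4 and 8.09 TPM in IL-1β-plus-budesonide cells, inside the NS range of 7.45 to 12.5 TPM in all 4 libraries (0.16 ± 0.27, adjusted p = 0.692).

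The late rise with budesonide was also seen in the combination for some members and not for others. At 24 h ZNF277 had 49.5, 50.8, 45.7 and 49.1 TPM in IL-1β-plus-budesonide cells (1.07 ± 0.09, adjusted p = 1.36e-16), and ZNF581 had 30.4, 34.4, 30.9 and 38.3 TPM (1.05 ± 0.11, adjusted p = 8.42e-12), both far above NS and both called 2-fold (background 10.0%). The change of ZNF581 was 0.98 without NS replicate 1 or without IL-1β-plus-budesonide replicate 4, which left ZNF277 as the one 2-fold call. ZNF579 had 7.81, 7.28, 6.58 and 6.20 TPM in IL-1β-plus-budesonide cells at 24 h, overlapping the NS range of 6.99 to 9.07 TPM (-0.19 ± 0.13, adjusted p = 0.277). At 6 h it had 16.7, 12.9, 12.7 and 11.3 TPM, between its budesonide and NS levels (0.30 ± 0.14, adjusted p = 0.109). The interaction term, which is the log2 change with both agents minus the sum of the single changes, was -0.95 ± 0.19 for ZNF579 at 6 h (adjusted p = 2.38e-04) and -0.94 ± 0.18 at 24 h (adjusted p = 8.19e-05).

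Over all members, the interaction passed in 7 at 6 h, 3 positive and 4 negative (5.15%, against 9.96% of all genes), and in 6 at 24 h, 1 positive and 5 negative (4.41%, against 15.4%). ZNF277 was negative at both times (-0.69 ± 0.13 at 6 h and -0.65 ± 0.12 at 24 h), that is, the combination gave less than the sum of its 2 rises. ZNF618 was positive at 6 h (0.91 ± 0.26, adjusted p = 0.0151). It had 5.79, 6.50, 6.42 and 5.45 TPM in IL-1β-plus-budesonide cells at 6 h, above all IL-1β libraries and below all NS libraries. ZNF710 was negative at 6 h (-0.97 ± 0.29, adjusted p = 0.0180), with 7.45, 9.35, 10.1 and 5.44 TPM in IL-1β-plus-budesonide cells, against 8.31, 13.6, 11.7 and 12.6 TPM in IL-1β cells.

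Set directly against IL-1β, IL-1β-plus-budesonide had 11 members higher and 17 lower at 6 h (20.6%, against 30.6% of all genes) and 14 higher and 12 lower at 24 h (19.1%, against 33.2%). At 6 h ZNF281 (0.86 ± 0.17), ZNF618 (0.82 ± 0.18), ZNF395 (0.70 ± 0.18) and ZNF579 (0.68 ± 0.13) were higher with the combination. Lower at 6 h were ZNF143 (-0.82 ± 0.20), with 14.9, 11.2, 9.54 and 18.8 TPM in IL-1β-plus-budesonide cells, and ZNF513 (-0.52), ZNF710 (-0.50), ZNF267 (-0.49) and ZNF207 (-0.35 ± 0.09). For ZNF143 and ZNF207 every IL-1β-plus-budesonide library lay below every IL-1β library. At 24 h the largest difference was in ZNF641 (-1.18 ± 0.27, adjusted p = 2.58e-04), the one 2-fold call (background 6.73%), followed by ZNF267 (-0.70) and ZNF226 (-0.54) among those lower and by ZNF281 (0.90), ZNF581 (0.84) and ZNF395 (0.74) among those higher.

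A few members moved the same way under every treatment at 24 h. ZNF331, an imprinted KRAB-type gene on the stress-inducible list, had 5.16, 4.75, 4.20 and 5.31 TPM in IL-1β-plus-budesonide cells, 6.22, 4.16, 6.23 and 5.71 TPM in IL-1β cells and 7.52, 6.03, 5.29 and 6.23 TPM in budesonide cells at 24 h, against 10.4, 10.5, 7.50 and 9.28 TPM in NS cells. Its log2 changes at 24 h were -0.88 ± 0.15 with IL-1β-plus-budesonide, -0.71 ± 0.15 with IL-1β and -0.55 ± 0.15 with budesonide. ZNF326 and ZNF180 were also lower at 24 h in all 3 comparisons, which share the NS libraries. ZNF544 passed as lower in all 3 too, but its IL-1β and budesonide calls were each lost without single libraries, as given above. ZNF644 did not pass with IL-1β at 2, 6 or 24 h (log2 change 0.20 at 2 h and 0.07 at 6 h). It was higher with budesonide and with the combination at 6, 12 and 24 h. The changes were 0.59, 0.42 and 0.52 with budesonide and 0.55, 0.38 and 0.42 with the combination. The call of the combination at 24 h was lost without IL-1β-plus-budesonide replicate 1 (adjusted p = 0.0504).

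**Figure D5:**
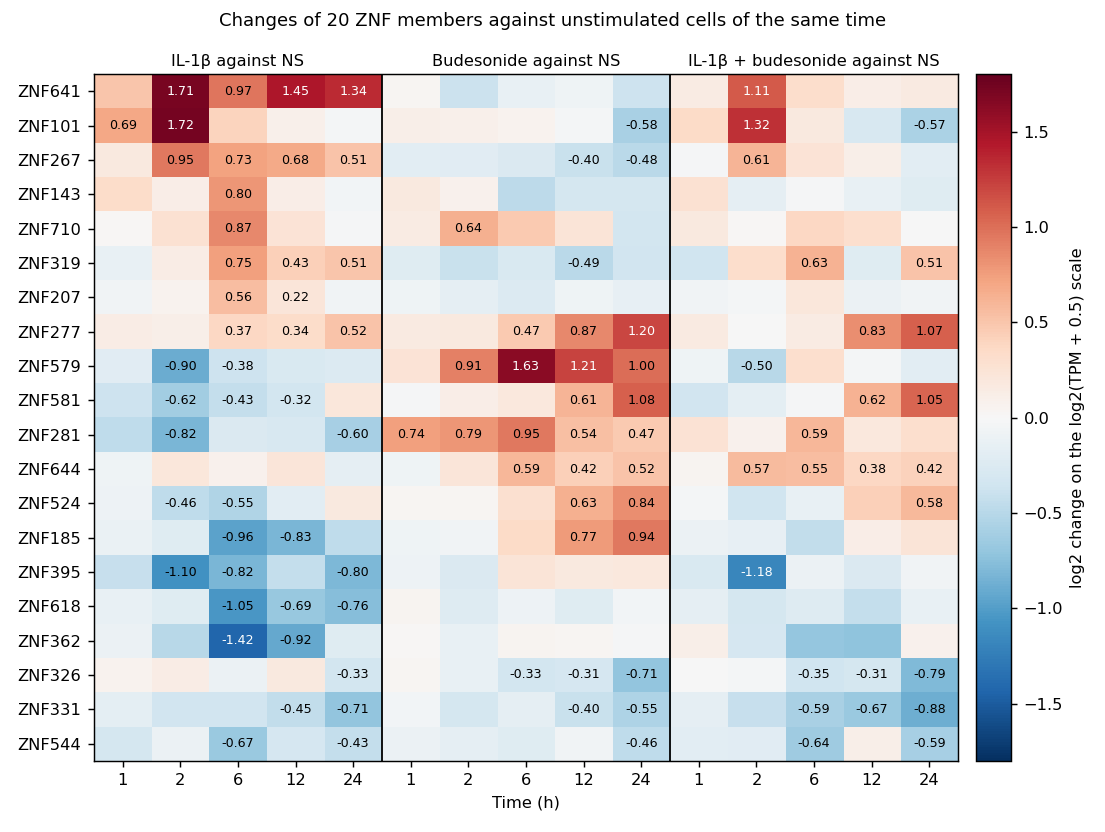
Log2 changes of 20 named members against NS of the same time (colour, on the log2(TPM + 0.5) scale), with a block of 5 times for each treatment and numbers where the change passed the test. ZNF641 is raised from 2 to 24 h of IL-1β, ZNF281 at all 5 times of budesonide, and ZNF277 and ZNF581 late in budesonide and in the combination.

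By structural class, the KRAB members passed in 23.7% with IL-1β at 6 h (5 higher, 9 lower of 59) and the members without the pattern in 42.9% (13 higher, 20 lower of 77), against 45.1% of all genes. At 24 h of budesonide the shares were 23.7% (10 higher, 4 lower) and 22.1% (12 higher, 5 lower), against 41.1% of all genes. Over all 15 comparisons, 64.4% of the KRAB members and 68.8% of the others passed at least once, against 79.5% of all genes. That 79.5% is also the background of the other shares passing at least once in this paragraph. Of the 52 members with 10 or more fingers 32 (61.5%) passed at least once, none of them at 2-fold. All 8 members called 2-fold had fewer than 10 fingers, where 24.4% of all genes were called 2-fold. Of the 10 members on the SCAN list 3 (30.0%) passed at least once, and with IL-1β at 6 h 1 was higher and 2 lower. In that comparison the list of chromatin partners had 2 of 12 higher and 3 lower, the growth and cancer list 2 of 8 lower and the stress-inducible list 2 of 4 higher, beside 19.6% higher and 25.5% lower over all genes. No test of these differences was made. The median mean level was 8.47 TPM in the KRAB members and 12.2 TPM in the others, and 83.3% of the 24 members at 20 TPM or more passed at least once, against 63.5% of the 74 members at 5 to 10 TPM.

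The 18 genes listed as partners in KRAB silencing were counted in the same fit. With budesonide at 24 h 2 were higher and 8 lower (55.6%, against 41.1% of all genes), and with IL-1β-plus-budesonide 1 higher and 8 lower (50.0%, against 38.0%). The 3 that fell 2-fold in both (9.8% and 10.0% of all genes were called 2-fold) were the DNA methyltransferase DNMT1 (-1.31 with budesonide), the histone methyltransferase SUV39H1 (-1.25) and the heterochromatin protein CBX5 (-1.10). SETDB1, also on the list, went the other way. Its mean at 24 h was 22.5 TPM with budesonide and 21.5 TPM with the combination, against 16.8 TPM in NS cells, and every library of both lay above every NS library. TRIM28 itself, the main KRAB partner, was lower by a small amount (-0.20 with budesonide, -0.27 with the combination and -0.23 with IL-1β at 24 h). With IL-1β at 6 h 2 of the 18 were higher and 3 lower (27.8%, against 45.1% of all genes).

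NS cells changed little over time. Against NS at 1 h, 7 members passed at 24 h (3 higher, 4 lower, background 5.94%), among them ZNF189 (0.69), ZNF281 (0.65), ZNF544 (-0.56) and ZNF581 (-0.36).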

How the data were processed

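Values for 19652 genes came from 1 long table that the authors deposited. Its signal column holds TPM that the authors obtained with kallisto against GRCh38 and normalized across libraries with sleuth, so library sums differ. The labels describe 4 independent experiments, and 3 for 12 h although 3 of the 4 groups at that time held 4 libraries here, and they do not say that a replicate number marks an experiment. The rows of 1 library were not analysed here. A second deposited table with the authors' own comparisons (log2 fold changes, false discovery rates, direction and peak time) was not used. Read depth is not in the table.

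log2(TPM + 0.5) was fitted with limma 3.58.1 in R 4.3.3, with 1 mean per group over 78 libraries (58 residual degrees of freedom) and a trended variance, for the 13327 genes at 1 TPM or more in at least 3 libraries. The planned design spoke of TPM, and the same log-scale test was kept for the normalized values. Fold changes on this scale understate those of low genes. p-values were adjusted by Benjamini-Hochberg over all 13327 genes and measure the spread between libraries. The script was tested on simulated data. The members and gene lists were chosen with earlier results of these data known. Genes were named by rule as the 4 highest and 4 lowest that passed at 6 h and 24 h per treatment, all 2-fold calls, the 6 most abundant, the 3 on each side of the 5 TPM limit, list members, and the 3 highest and 3 lowest for the combination against IL-1β and for the interaction; a few other members that passed are named beside them, chosen after their values were seen.

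Annotations came from RefSeq GRCh38.p14, found for all 136 members by symbol or synonym, and from coding sequences of GENCODE, translated and searched with Python 3.11.15 for finger and KRAB patterns. RefSeq promoter windows were found for 120 members. Same-numbered libraries deviated together, with correlations of 0.0793 to 0.648, over 0.1 in 54 of 56 pairs with NS. At 6 h and 24 h every pair of each comparison was over 0.1, except with IL-1β-plus-budesonide at 6 h. The main fit left this pairing out, so the SEs, p-values and calls given for single genes are unpaired. Fits with the replicate number as a block were run beside it and are given where they moved a count. Alternatives were other pseudocounts, filters, scalings, fits within each time, limits of the member rule, and leaving out replicates and libraries; those for the 2-fold members at 1, 2 and 12 h were added after seeing the data.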

Additional observations from a re-analysis of the deposited data

Results flagged for a closer look

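Single libraries stood far from the other 3 of their group in 13 of 196 groups of 4 libraries tested over 28 named genes, and chance flags about 1 in 20 such groups. In replicate 2 of IL-1β at 24 h, a library that stood apart over all genes, this held for ZNF641 (11.6 TPM, the others 29.1 to 31.6), ZNF579 (7.89 TPM), ZNF326 (10.7 TPM) and ZNF581 (23.8 TPM). In replicate 4 of IL-1β at 6 h it held for ZNF644 (13.8 TPM), ZNF326 (13.5 TPM) and ZNF180 (4.72 TPM), and in replicate 3 of that group for ZNF331 (8.07 TPM). In budesonide cells it held at 24 h in replicate 4 for ZNF226 (17.9 TPM) and ZNF524 (28.7 TPM) and at 6 h in replicate 4 for ZNF789 (8.25 TPM). In IL-1β-plus-budesonide cells at 24 h it held for ZNF710 in replicate 4 (5.10 TPM) and ZNF180 in replicate 2 (4.84 TPM).

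The response to both agents differed from the sum of the single responses (limma interaction, adjusted over all genes) at 6 h in ZNF277 (-0.69, adjusted p = 7.30e-05), ZNF410 (-0.39), ZNF692 (0.54), ZNF579 (-0.95), ZNF174 (0.43), ZNF710 (-0.97) and ZNF618 (0.91). At 24 h it differed in ZNF277 (-0.65, adjusted p = 4.95e-05), ZNF226 (-0.64), ZNF287 (-0.53), ZNF579 (-0.94), ZNF668 (-0.70) and ZNF180 (0.55). The response at 24 h minus that at 6 h passed for ZNF581 with IL-1β (0.63, adjusted p = 0.00290) and with budesonide (0.90, adjusted p = 4.69e-05), and with budesonide for ZNF277 (0.73) and ZNF579 (-0.63). For ZNF581 with IL-1β, replicate 2 at 24 h had 23.8 TPM, against 16.4 to 17.1 TPM in the others, and this difference was not refitted without it.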

How the results depend on the processing

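Of 122 results for single named members, none changed direction. They lost their call in 39 of 1218 repeats under other settings (13 in fits within each time, 12 after quantile normalization, 9 after median-of-ratios rescaling, 3 without the libraries that stood apart, 2 with no filter, 0 under the block) and in 176 of 1415 repeats without 1 or more libraries. The table gives no read depth, so precision rests on the spread between libraries.

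The count of 2-fold members with IL-1β at 6 h (2) was 1 with a pseudocount of 1 and 1 after quantile normalization. Median-of-ratios rescaling gave 14 higher with IL-1β at 24 h and 8 with IL-1β-plus-budesonide at 6 h. Quantile normalization gave 15 higher with IL-1β at 24 h, 9 with budesonide at 6 h and 19 with IL-1β-plus-budesonide at 24 h, and 4 called 2-fold with budesonide at 24 h. The replicate block gave 14 higher with IL-1β at 24 h, 9 higher with budesonide at 6 h and 17 lower with IL-1β-plus-budesonide at 6 h, and moved no other count past 1.5 times. Fits within each time gave 9 higher with budesonide at 6 h, and 10 higher and 19 lower with IL-1β-plus-budesonide at 6 h. Without the libraries that stood apart, 11 were higher with budesonide at 6 h, 14 lower with budesonide at 24 h, and 12 higher and 17 lower with IL-1β-plus-budesonide at 6 h.

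Leaving out replicates or single libraries gave, with IL-1β at 6 h, 16 to 22 higher, 20 to 29 lower and 2 to 5 called 2-fold, and at 24 h 5 to 8 higher, 9 to 17 lower and 1 to 1 called 2-fold. With budesonide it gave 3 to 6 higher, 1 to 3 lower and 1 to 1 called 2-fold at 6 h, and 16 to 22 higher, 7 to 11 lower and 2 to 3 called 2-fold at 24 h. With IL-1β-plus-budesonide it gave 2 to 6 higher and 4 to 10 lower at 6 h, and 8 to 12 higher, 9 to 16 lower and 1 to 2 called 2-fold at 24 h.

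A limit of 2 TPM takes in 267 genes. With IL-1β 69 were then lower and 9 called 2-fold at 6 h, and 13 higher, 32 lower and 5 called 2-fold at 24 h. With budesonide 10 were higher and 5 lower at 6 h, and 38 higher, 23 lower and 5 called 2-fold at 24 h. With IL-1β-plus-budesonide 26 were lower and 2 called 2-fold at 6 h, and 20 higher, 36 lower and 7 called 2-fold at 24 h. A limit of 10 TPM takes in 62 genes. With IL-1β 14 were then lower and 1 called 2-fold at 6 h, and 4 higher and 8 lower at 24 h. With budesonide 1 was lower at 6 h, and 11 higher and 3 lower at 24 h. With IL-1β-plus-budesonide 6 were lower at 6 h and 7 at 24 h.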

Other observations

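Members that rose with budesonide at 24 h stood close together on chromosome 19 (RefSeq GRCh38.p14, chosen after the values were seen). ZNF579 (55576774 to 55580848), ZNF524 (55599574 to 55603138), ZNF581 (55635003 to 55645623) and ZNF580 (55641002 to 55643470) lie within 68850 bases, and the span of ZNF580 lies inside that of ZNF581, so reads of these 2 may not be fully told apart. Their log2 changes with budesonide at 24 h were 1.00, 0.84, 1.08 and 0.50. At 6 h of budesonide ZNF579 alone of the 4 passed (1.63). Within 100000 bases of the 4 start 10 other tested genes. Of these, SBK3 (1.30, adjusted p = 7.07e-06, mean level 1.54 TPM) and ZNF784 (0.45, adjusted p = 0.0107) were also higher at 6 h of budesonide, and the rest did not pass. At 6 h of IL-1β all 4 members passed as lower (-0.38, -0.55, -0.43 and -0.70), as did 5 of those 10 genes. The IL-1β call of ZNF579 was lost without NS replicate 2 or IL-1β replicate 3 or 4 (adjusted p 0.0534 to 0.115) and after either rescaling (0.0721 and 0.109), and that of ZNF524 without NS replicate 2 (adjusted p = 0.0527). Between them lie FIZ1, ZNF865 and ZNF784, whose log2 changes with budesonide at 24 h were -0.07, -0.05 and 0.20 and did not pass. Of the 10 other genes, 1 was higher and 2 lower with budesonide at 24 h, beside 19.5% higher and 21.6% lower over all genes.

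Other zinc finger families were counted at 5 TPM or more. Of 16 ZBTB genes, which pair fingers with a BTB domain, 6 were higher and 1 lower with budesonide at 24 h (43.8%, near the 41.1% of all genes). With budesonide at 24 h 1 of 10 ZKSCAN and ZSCAN genes was higher, beside 19.5% higher over all genes. Of 7 ZFP genes 5 were lower and none higher with IL-1β at 6 h, beside 25.5% lower and 19.6% higher over all genes. Among the 231 tested ZNF genes below 5 TPM, 65 were lower (28.1%) and 6 higher (2.6%) in the same comparison.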
